A study of Homo sapiens with 2 samples.

Results

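OVCAR5 cells that held the fewest transcripts of 6 cell cycle genes were compared with the other cells carrying the same hashtags. They were selected on a score: the UMIs (unique molecular identifiers, counted molecules) of TOP2A, MKI67, UBE2C, CENPF, HIST1H4C and HIST1H1B per 10000 gene UMIs of the cell. The lowest quintile within each pair of hashtags was taken, 1191 of 5956 cells with a pair, and the other 4765 cells served as the rest. The score was a measured value, so levels of these 6 genes are given as a description of how the cells were chosen.

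OVCAR5 is an ovarian carcinoma line, here carrying a reporter that senses interferon-gamma and marked CFP+. A pool of cells left unstimulated or given 1, 10 or 100 ng/ml interferon-gamma for 2, 6, 12 or 24 h, with frozen cells of the unstimulated and 100 ng/ml conditions at 24 h, was profiled by droplet 3' RNA sequencing and antibody hashtags. The 18 conditions named in the labels share the line and the reporter, and whether the line is 1 clone was not stated in them. No source used here ties a hashtag pair to a condition, so the pool was treated as 1 sample, no p-value was computed, and no dose or time is attached to any value.

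Cells that divide pass through G1, DNA replication in S phase, G2 and mitosis, while resting cells leave the cycle from G1. TOP2A untangles DNA, MKI67 coats mitotic chromosomes, CENPF binds kinetochores and UBE2C feeds the anaphase-promoting complex. These are made mainly from S phase to mitosis, and HIST1H4C and HIST1H1B encode histones made during DNA replication. A low score can therefore be found in G1, in resting cells and in cells just before replication, and the score alone does not separate them.

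The 18 pairs held 156 to 480 cells and 31 to 96 low-score cells each. The score had a median of 0.856 in the low-score cells (highest 3.93) and 16.4 in the rest (lowest 0.756). In UMIs, the median low-score cell held 2 molecules of the 6 genes and the median cell of the rest 47, and 139 low-score cells (11.7%) held 0. The cut fell at different scores in different pairs. It was lowest in pair 1+4, where the last cell inside scored 0.754 and the first outside 0.756, and highest in pair 3+5, at 3.93 and 3.94. No pair had tied scores at the cut.

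Counting noise enters a choice made on so few molecules. When the UMIs of each cell were split at random into 2 equal parts and each part chose its own lowest quintile, 802 of 1191 cells (67.3%) were chosen by both. Cells chosen on one part had a median score of 1.3 on the other part, against 16.1 for the rest. The summed 6 genes stood at 0.0568 times the rest on the UMIs that chose the cells and at 0.0811 times on the held-out part.

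The low-score cells were shallower and had a larger mitochondrial share of UMIs than the rest, but carried about as many hashtag molecules. Median gene UMIs per cell ran from 23600.5 to 28570.5 over the pairs in the low-score cells and from 29086 to 35453 in the rest, and the 2 ranges did not overlap. The ratio was 0.74 to 0.908 (median 0.833), below 1 in 18 of 18 pairs. Detected genes per cell gave a ratio of 0.90 (range 0.852 to 0.94). Hashtag UMIs per cell gave 1.01 (range 0.805 to 1.2) and were higher in the low-score cells in 11 of 18 pairs. The mitochondrial share of UMIs was higher by 0.518 to 2.09 percentage points (median 1.13), in 18 of 18 pairs. From the lowest to the highest quintile of the score the median depth was 26301, 27762, 28850, 33194 and 38766 UMIs.

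**Figure D1:**
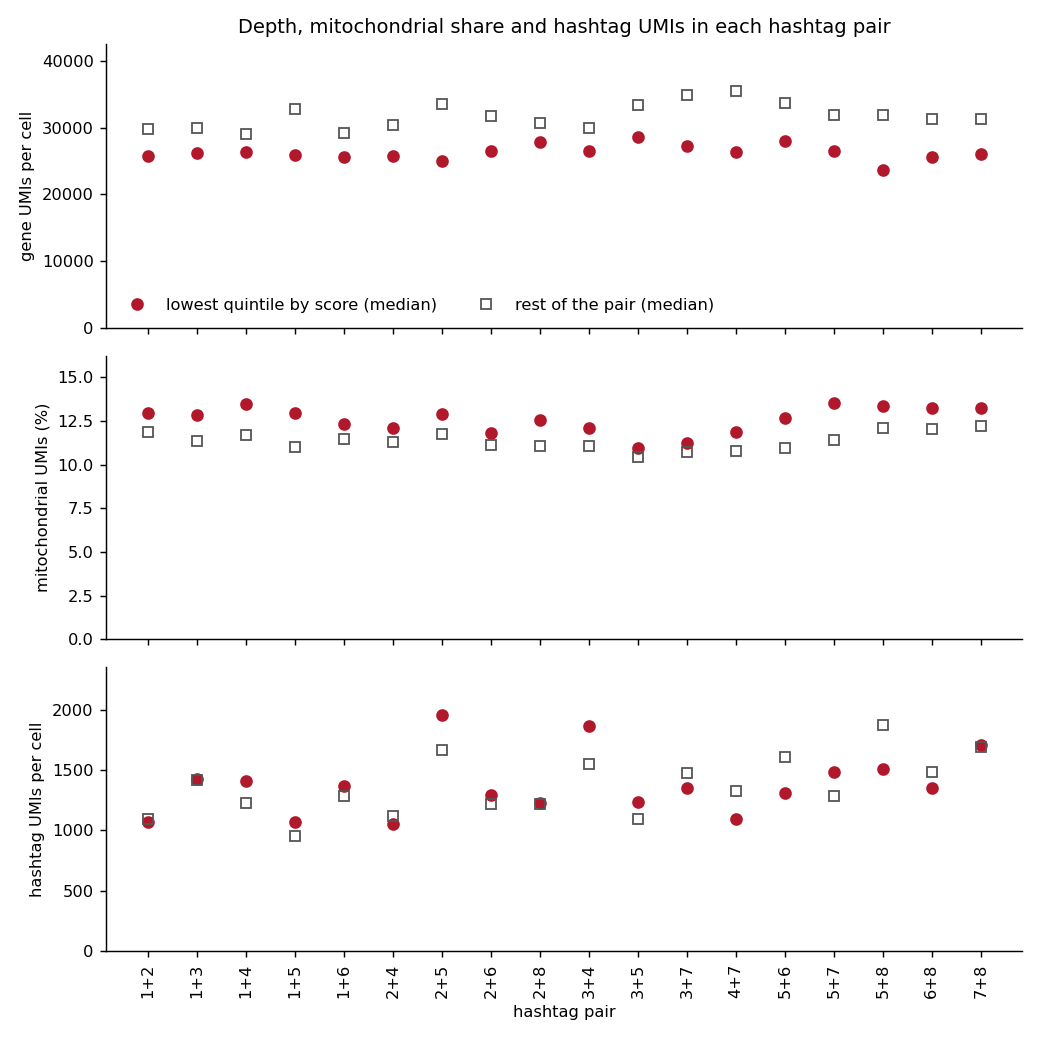
Each column is 1 hashtag pair; points are the median cell of the lowest quintile by score (filled circles) and of the rest of that pair (open squares), for gene UMIs per cell, mitochondrial UMIs in percent and hashtag UMIs per cell. In 18 of 18 pairs the lowest quintile lies below the rest in gene UMIs and above it in mitochondrial share, while hashtag UMIs fall on either side.

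Levels below are CPM, UMIs per 1000000 gene UMIs of the pair's cells, and ratios are low-score cells over rest, combined over pairs by the Mantel-Haenszel rule with a 95% interval for counting error only. A gene was called where this ratio was at least 1.3, or at most 1 divided by 1.3, with the same direction in at least 15 of 18 pairs. Of 9359 genes with at least 1000 UMIs outside the score, 1056 (11.3%) were called lower in the low-score cells and 471 (5.03%) higher. The genes called lower went far: 42 of them lay under 0.1 of the rest, whereas 23 of the higher ones reached 2. On held-out UMIs, 936 of the lower and 390 of the higher genes were still past the fold. These genes had been called on all UMIs, the held-out ones included, so part of this was built in. The median ratio of all 9365 genes tested was 0.975 per gene UMI but 0.796 per cell. Both scales are therefore given below for several lists, and the other lists are given per gene UMI only. Per cell, 3792 genes were called lower and 84 higher, the latter all among the 471. With the lowest quintile taken within tertiles of depth, 534 were lower and 86 higher when 45 of 54 strata of pair and depth had to share the direction, and 720 and 331 when 15 of 18 pairs had to, the latter a rule added after seeing the data.

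Genes of mitosis outside the score were lower as a group: 57 of 57 in the list were called lower, against 11.3% of all genes, with a median gene ratio of 0.105. Their summed level was 1609.5 to 4267 CPM (median 2785) against 7651 to 11691 CPM (median 9917) in the rest, ranges that do not overlap, and the ratio was 0.303 (0.301 to 0.305), from 0.182 to 0.422 over the pairs. The same ratio was 0.317 on held-out UMIs and 0.368 when the lowest quintile was taken within tertiles of depth. With a score of the 2 histone genes alone it was 0.869, so how far the mitosis genes lay below the rest depended on which genes made the score. PLK1, a kinase of mitotic entry and spindle assembly, was at 1.29 to 6.5 CPM (median 3.17) in the low-score cells and 56.9 to 105 CPM (median 75.5) in the rest. Its ratio was 0.0415 (0.0343 to 0.0502). KIF14, a kinesin of the cytokinetic bridge, was at 0 to 2.52 CPM (median 0.965) in the low-score cells and 20.5 to 48.3 CPM (median 32.1) in the rest, for a ratio of 0.0328 (0.0234 to 0.046), the lowest among the genes outside the score. KIF23 (0.0438), a kinesin of the central spindle, HJURP (0.0338), the chaperone of the centromeric histone CENP-A, and CCNA2 (0.0458), the cyclin of S phase and G2, lay as low. Within tertiles of depth these 5 stood at 0.107, 0.119, 0.109, 0.119 and 0.155, further from 0 but still far below the rest. The abundant members lay closer to the rest: TUBA1B, an alpha-tubulin that makes microtubules in all phases, stood at 0.614, and PTTG1, which encodes securin, at 0.653.

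The start regions of these genes are shown because many mitotic genes share a short element named the cell cycle genes homology region, or CHR. Through the CHR they are repressed outside G2 and mitosis. Many also hold CCAAT boxes. The stretches below, from RefSeq (GRCh38.p14), hold the 120 bases before the start site of a score gene and of 5 genes with low ratios, 5′ to 3′ along the gene. The first 4 were picked because they hold TTTGAA there, and KIF14 and CCNA2 are shown beside them because they do not. The stretches of TOP2A, CENPF and HIST1H1B, also score genes, do not hold it either. KIF14 does hold these letters on 1 strand just after its start site, beyond the 120 bases shown. Capitals mark TTTGAA, the CHR letters, and CCAAT, searched on both strands (so also as TTCAAA and ATTGG). Only these exact letters were searched, so a stretch without them, as in CCNA2, is not shown to lack the element in another form. In MKI67 the last A of a TTTGAA is also the first base of an ATTGG. MKI67 lies at chr10:128126424-128126543 (minus strand), PLK1 at chr16:23678769-23678888 (plus strand), KIF23 at chr15:69414229-69414348 (plus strand), PIF1, a DNA helicase gene, at chr15:64825648-64825767 (minus strand), KIF14 at chr1:200620752-200620871 (minus strand) and CCNA2 at chr4:121823884-121824003 (minus strand).
MKI67: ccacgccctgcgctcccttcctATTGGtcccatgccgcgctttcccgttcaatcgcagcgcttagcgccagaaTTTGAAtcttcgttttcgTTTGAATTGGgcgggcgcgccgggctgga
PLK1: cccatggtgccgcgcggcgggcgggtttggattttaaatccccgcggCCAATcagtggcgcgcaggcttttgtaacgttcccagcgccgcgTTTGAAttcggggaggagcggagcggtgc
KIF23: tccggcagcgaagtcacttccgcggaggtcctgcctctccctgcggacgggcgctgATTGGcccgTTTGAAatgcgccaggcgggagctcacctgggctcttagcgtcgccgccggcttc
PIF1: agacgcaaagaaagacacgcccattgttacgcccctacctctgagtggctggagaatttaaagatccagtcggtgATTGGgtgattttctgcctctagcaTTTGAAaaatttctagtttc
KIF14: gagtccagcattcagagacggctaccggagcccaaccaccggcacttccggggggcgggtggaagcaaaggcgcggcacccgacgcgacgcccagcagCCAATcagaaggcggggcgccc
CCNA2: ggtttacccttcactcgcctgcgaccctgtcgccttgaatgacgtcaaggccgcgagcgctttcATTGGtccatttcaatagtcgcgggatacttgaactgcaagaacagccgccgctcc

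Over the stretch from 250 bases before to 50 after the start, TTTGAA was present in 31 of 48 mitosis genes with an entry (64.6%), 1 of 43 DNA replication genes (2.33%) and 15.2% of all 35116 promoters in the table. CCAAT was present in 75% of the mitosis genes, 60.5% of the replication genes and 34.6% of all promoters. A match is a run of letters and not a shown binding site. Of the 6 score genes, 4 had an entry, and all 4 held TTTGAA in this stretch. UBE2C and HIST1H4C had no entry.

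The listed replication-dependent histones, which package newly made DNA, were lower in the low-score cells. Of 28 such genes 6 passed the UMI minimum and all 6 were called lower, against 11.3% of all genes. The list's summed level was 56.8 to 97.3 CPM (median 73.3) against 178 to 457 CPM (median 312) in the rest, for a ratio of 0.246 (0.236 to 0.256). The other 22 were under the minimum. Not all histone genes were lower: HIST3H2A and HIST1H2AC, outside this list, were called higher. They stood at 1.72 (1.61 to 1.84) and 1.63 (1.49 to 1.78). HIST1H1D, a linker histone, was at 0 to 11.5 CPM (median 4.37) in the low-score cells and 31.8 to 141 CPM (median 95.6) in the rest, for a ratio of 0.0548 (0.0466 to 0.0645), or 0.14 within tertiles of depth. HIST1H1C, another linker histone, stood at 0.402 (0.379 to 0.427). Most histone transcripts lack the poly(A) tail that this chemistry primes on, and near-identical copies can share reads, so single histone genes are uncertain.

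Genes of the replication machinery were also lower, but less far. Of 50 genes, 48 were called lower and 0 higher, against 11.3% and 5.03% of all genes. POLD2, a DNA polymerase delta subunit, and RFC1, of the clamp loader, were not called, and the median gene ratio was 0.51. The summed level was 807 to 2503 CPM (median 1885) against 2984 to 3984 CPM (median 3521) in the rest, and the ratio was 0.489 (0.485 to 0.494), from 0.237 to 0.658 over the pairs. RRM2, the ribonucleotide reductase subunit made in S phase, was at 3.15 to 44.4 CPM (median 16.5) in the low-score cells and 128 to 191 CPM (median 169) in the rest, for a ratio of 0.117 (0.108 to 0.126). CDC45, part of the replicative helicase, stood at 0.185 (0.164 to 0.209), TYMS, which makes thymidylate, at 0.358 (0.346 to 0.37) and PCNA, the sliding clamp, at 0.503 (0.483 to 0.524). Taken within tertiles of depth, the list's ratio was 0.648, closer to 1 than in the main comparison. RRM2 and CDC45 were then at 0.263 and 0.35. Regulators of the G1 to S transition gave 0.507 (0.497 to 0.518). Of 16 tested, 13 were called lower, against 11.3% of all genes, and CCNE1, CDCA7 and E2F3 were not called. FOXM1, a transcription factor of G2 genes, stood at 0.208 (0.185 to 0.234), MYBL2 at 0.231 (0.211 to 0.252) and E2F8, a repressive E2F, at 0.102 (0.0741 to 0.14). Within tertiles of depth they stood at 0.327, 0.384 and 0.369.

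Replication genes and mitotic genes took different courses along the score. Over the second to the highest quintile, DNA replication levels were 1.57, 2.16, 2.19 and 1.74 times those of the lowest quintile (medians over pairs), highest in the fourth. Mitosis genes went through 1.78, 2.58, 3.57 and 4.94 times and replication histones through 1.02, 2.15, 5.37 and 5.63 times. In the second quintile, DNA replication levels were above the lowest quintile in 18 of 18 pairs and replication histones in 9. CCNE2, the cyclin E2 that acts before S phase, was at a median of 5.12 CPM in the lowest quintile, 15.1 in the second, 24.3 in the third, 20.8 in the fourth and 5.28 in the highest. Of the 5 quintiles, the lowest had the lowest median level of replication and of mitosis genes.

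**Figure D2:**
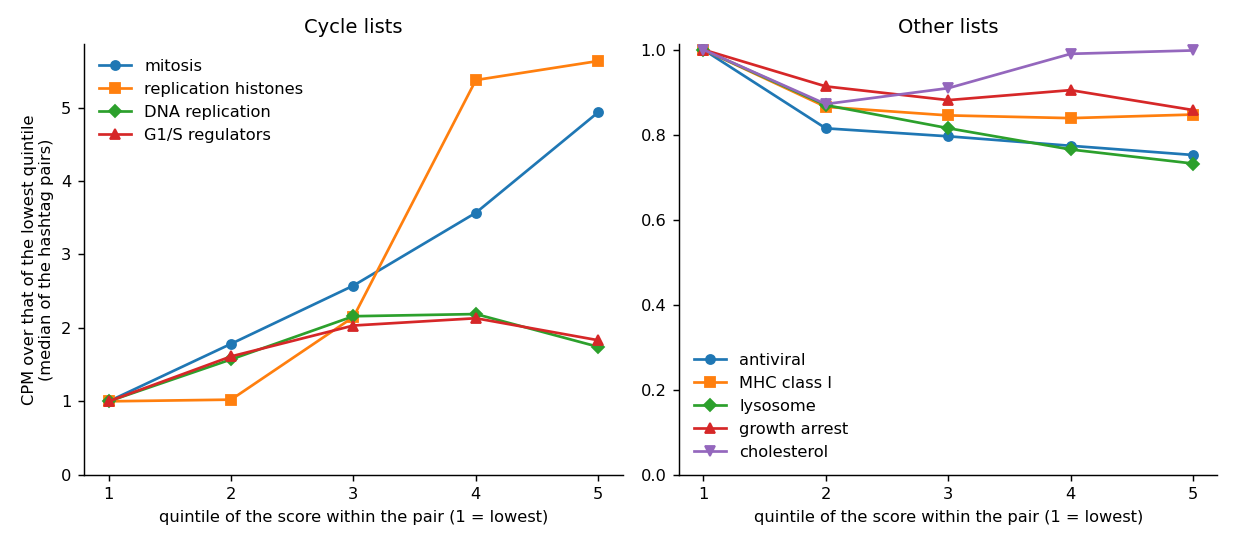
Cells were cut into quintiles of the score within each pair (1 is the lowest); each line is a gene list and each point the median over 18 pairs of its CPM divided by that of the lowest quintile. DNA replication is 1.57 times the lowest quintile in the second and 1.74 times in the highest, mitosis reaches 4.94 times, and antiviral, MHC class I and lysosome genes lie below 1 in quintiles 2 to 5.

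Within the low-score cells, thinned to 10000 UMIs each, the median cell held 14 UMIs of replication genes and cells from the tenth to the ninetieth percentile held 5 to 35. The rest held a median of 33. As a description, sums of mitosis and of replication genes were correlated over the 31 to 96 low-score cells of each pair. Their median Spearman rho was 0.39 (0.188 to 0.604 over the pairs). In the rest the median was -0.42, but pairs ran from -0.708 to 0.382, so the sign was not the same in all. These cells share a library and a fixed number of UMIs, so a larger sum of one list leaves fewer UMIs for another.

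Cyclin D genes and the G1 kinases, which start the cycle, were near the rest. Of 10 tested, 1 was called lower, against 11.3% of all genes: CDK4 at 0.768 (0.744 to 0.794). The list gave 0.937 (0.926 to 0.948) per gene UMI and 0.765 per cell, where the median of all genes was 0.796. CCND1, a D cyclin, was at 249 to 667 CPM (median 559) in the low-score cells and 375 to 653 CPM (median 567) in the rest, ranges that overlap, and had a ratio of 0.963 (0.948 to 0.979). Inhibitors of cyclin-dependent kinases went both ways: 4 of 6 tested were called lower and 1 higher, against 11.3% and 5.03% of all genes. CDKN1C was at 6.52 to 27.9 CPM (median 15.1) in the low-score cells and 2.25 to 14.9 CPM (median 9.22) in the rest, and its ratio was 1.88 (1.69 to 2.08), higher in 17 of 18 pairs. CDKN1C encodes p57, which binds and blocks these kinases. CDKN2D, an inhibitor of CDK4 and CDK6, stood at 0.196 (0.162 to 0.237), CDKN2C, of the same family, at 0.375 (0.324 to 0.434), CDKN3, a phosphatase acting on the kinases, at 0.532 (0.515 to 0.55) and CDKN1B, which encodes p27, at 0.721 (0.644 to 0.807). Their summed ratio of 0.571 came mostly from CDKN3, which had 38517 of the list's 52224 UMIs, and it was 1.02 when only the histone genes made the score.

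Genes linked to growth arrest were called higher in 7 of 24 tested, against 5.03% of all genes, and lower in 2, GADD45A and KLF4; their median gene ratio was 1.2, against 0.975 over all genes tested. MXD4, which pairs with MAX and opposes MYC on DNA, was at 18.3 to 62 CPM (median 36) in the low-score cells and 10.2 to 29.2 CPM (median 17.6) in the rest. It was higher in 18 of 18 pairs, with a ratio of 2.24 (2.1 to 2.39). PNRC1, a nuclear receptor coregulator, was at 8.25 to 59.7 CPM (median 22.3) in the low-score cells and 4.98 to 19 CPM (median 9.53) in the rest. Its ratio was 2.46 (2.26 to 2.67), above 1 in 18 of 18 pairs. PDCD4, an inhibitor of translation initiation, stood at 1.98 (1.74 to 2.26), and DDIT4, an inhibitor of mTORC1, at 1.89 (1.78 to 2.01). YPEL3 and YPEL5 stood at 1.78 and 1.71. FOXO1 was the other one called. The summed level of the list, to which ID1, ID2 and ID3 gave the most UMIs of the genes tested, was 1462 to 2352 CPM (median 1872) against 1446 to 2080.2 CPM (median 1622) in the rest, and the ratio of 1.14 (1.13 to 1.15) per gene UMI became 0.929 per cell. MXD4 and PNRC1 kept ratios of 1.84 and 1.98 per cell.

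Of 13 secreted factors often named with senescence, 0 were called higher and 4 lower, against 5.03% and 11.3% of all genes, among them AREG and EREG, ligands of the EGF receptor, at 0.641 (0.626 to 0.656) and 0.693 (0.67 to 0.718), and PLAU, urokinase, at 0.478 (0.462 to 0.496). PLAU was at 50.7 to 148 CPM (median 101) in the low-score cells and 173 to 275 CPM (median 212) in the rest, and the ranges did not overlap. Targets of p53 were near the rest, with 1 of 11 called higher (PHLDA3, 1.33) and 2 lower (AEN, 0.617, and MDM2, 0.747), against the same 5.03% and 11.3%. Of 13 immediate early genes, 2 were called higher and 3 lower, again against 5.03% and 11.3% of all genes. FOSL1, an AP-1 subunit, stood at 0.48 (0.467 to 0.493) while JUND, another, stood at 1.39 (1.33 to 1.45) and MYC at 1.35 (1.3 to 1.41).

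Among the 15 called genes with the highest ratios, VCAM1 and TNFSF10 encode proteins of the cell surface. VCAM1, a ligand for integrins on leukocytes, was at 8.59 to 36.4 CPM (median 18.2) in the low-score cells and 1.65 to 12 CPM (median 5.25) in the rest, and had the highest ratio among the called genes, 3.63 (3.28 to 4.01) on 1530 UMIs in all, higher in 18 of 18 pairs. TNFSF10, the death ligand TRAIL, was at 18.9 to 276 CPM (median 99.4) in the low-score cells and 4.0 to 123 CPM (median 36.7) in the rest, and had a ratio of 2.53 (2.44 to 2.63), again in 18 of 18 pairs. For both genes the ranges over pairs overlap, while within each pair the low-score cells lay above the rest.

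CFI, the protease that cleaves activated complement, was at 10.7 to 55.2 CPM (median 28.5) in the low-score cells and 7.32 to 23.6 CPM (median 12.4) in the rest, and had a ratio of 2.22 (2.07 to 2.4). CFB, of the alternative pathway convertase, stood at 2.16 (1.9 to 2.45). TSHZ2, a zinc finger homeobox gene, had 2.82 (2.56 to 3.1), SYNPO, which binds actin, 2.68 (2.36 to 3.05), CLIC3, a chloride intracellular channel protein, 2.65 (2.42 to 2.89), and RARRES1, a retinoid-responsive gene, 2.42 (2.21 to 2.65). The others were TMEM37, AC009133.1, SLC2A12, a glucose transporter, LINC02762 and SULT1C2, a sulfotransferase, with PNRC1 and MXD4. All 15 stood at 1.74 to 2.96 per cell, at 1.88 to 3.96 on held-out UMIs and at 1.61 to 3.22 within tertiles of depth. The 15 were picked on all UMIs, the held-out ones included, so these values are not an independent check.

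**Figure D3:**
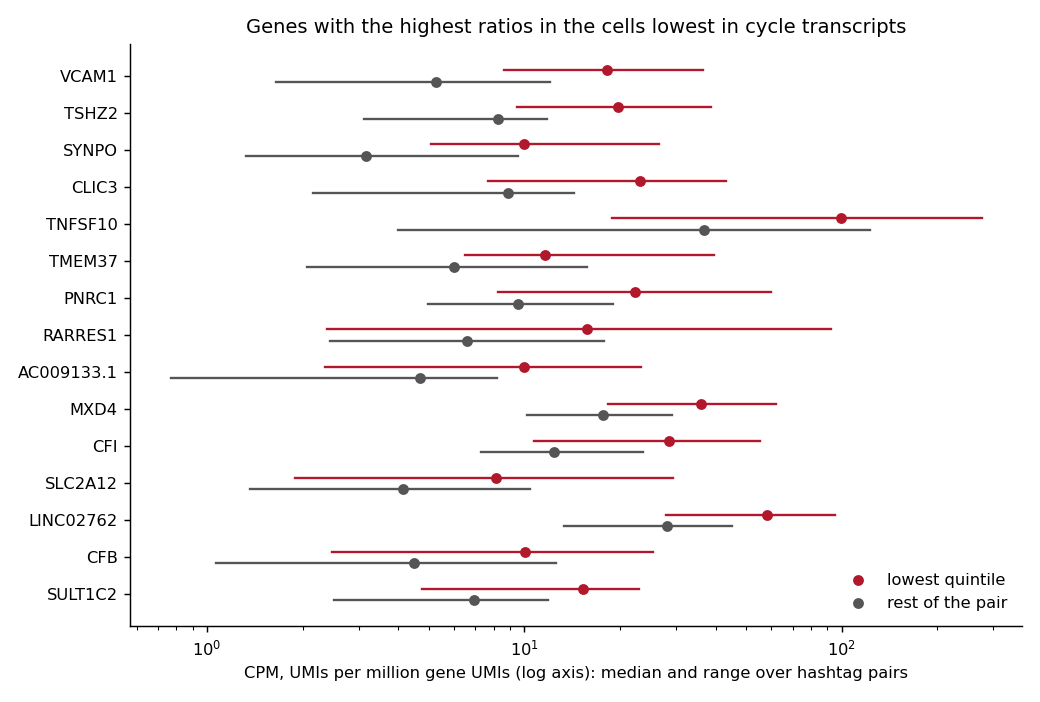
For the 15 called genes with the highest ratios, points are the median over 18 hashtag pairs and lines the range from the lowest to the highest pair, in CPM on a log axis, for the lowest quintile by score and the rest of the pair. VCAM1 has a median of 18.2 CPM in the lowest quintile and 5.25 CPM in the rest.

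Interferon-gamma signals through the kinases JAK1 and JAK2 and raises IRF1, the MHC genes and guanylate-binding proteins. Among the antiviral genes, 12 of 36 were called higher and 1, HERC5, lower, against 5.03% and 11.3% of all genes, and the median gene ratio was 1.23. The summed antiviral level was 2817 to 11161 CPM (median 7274) against 2307 to 9699 CPM (median 5395) in the rest, and the ratio was 1.29 (1.28 to 1.29), above 1 in 18 of 18 pairs. IFI27, an interferon-induced mitochondrial protein, was at 482 to 1468 CPM (median 918) in the low-score cells and 268 to 1033 CPM (median 591) in the rest, for a ratio of 1.47 (1.45 to 1.49). IFI44L stood at 1.7 (1.57 to 1.83), IFITM1, which blocks viral entry, at 1.63 (1.5 to 1.77), and ISG15, the ubiquitin-like modifier, at 1.36 (1.35 to 1.38), while IFIT3, an RNA-binding effector, was at 1.04 (1.02 to 1.06) and not called.

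Counts of antigen presentation genes called are set beside 5.03% of all genes called higher and 11.3% called lower. None of 19 MHC class I genes was called, although the summed ratio of 1.16 (1.16 to 1.17) was above 1 in 18 of 18 pairs. B2M, the light chain of class I molecules, was at 2057 to 7089.7 CPM (median 3514) in the low-score cells and 1635 to 5625 CPM (median 2758) in the rest, and had a ratio of 1.2 (1.19 to 1.21). In MHC class II, 2 of 11 tested were called, HLA-DRA at 1.49 (1.43 to 1.55) and HLA-DMA at 1.33 (1.25 to 1.41), and the list gave 1.26 (1.24 to 1.27), from 0.953 to 1.72 over the pairs. CIITA, the activator of class II genes, stood at 1.3 (1.2 to 1.42), the only one called of 17 interferon transcription factors, and IRF1 stood at 1.15 (1.14 to 1.17). Reads of HLA genes can be split among close paralogs.

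Guanylate-binding proteins, GTPases of cell-autonomous defence, were called higher in 3 of 6, against 5.03% of all genes. GBP2 was at 8.23 to 289 CPM (median 211) in the low-score cells and 4.92 to 174 CPM (median 112) in the rest, and the ratio was 1.89 (1.83 to 1.95), in 18 of 18 pairs. GBP1 stood at 1.32 (1.29 to 1.34) and GBP7 at 1.31 (1.19 to 1.44), and the list at 1.29 (1.28 to 1.31). Chemokines gave 1.37 (1.34 to 1.4), but from 0.697 to 2.84 over the pairs, and 0 of 5 was called. Of the receptors and kinases, IFNGR1, the ligand-binding chain of the interferon-gamma receptor, was called, at 1.3 (1.2 to 1.42), whereas IFNGR2 stood at 0.912 (0.86 to 0.966) and JAK1 at 1.09 (1.04 to 1.14).

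These ratios depend on the denominator, and depth went with the score. Per cell the antiviral ratio was 1.04, guanylate-binding proteins 1.04, MHC class II 0.993 and MHC class I 0.935, with the median of all genes at 0.796. Within tertiles of depth, per gene UMI, they were 1.17, 1.19, 1.15 and 1.06. Across the quintiles the antiviral level was 0.815 of the lowest quintile in the second and 0.752 in the highest. Cells in the top 5% of antiviral UMIs of their pair made up 7.98% of the low-score cells (95 of 1191, exact 95% binomial interval 6.5 to 9.66%) and 4.41% of the rest (210 of 4765, 3.84 to 5.03%). Without them and 6 cells high in SERPINB3, the antiviral ratio was 1.26.

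**Figure D4:**
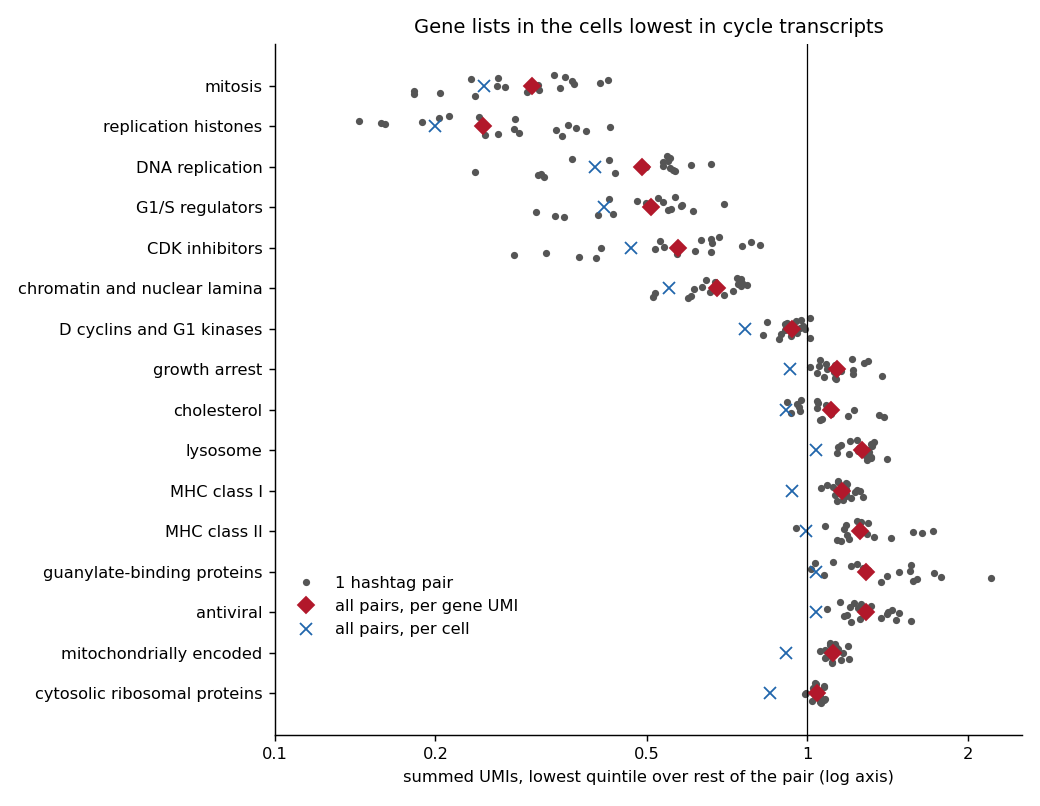
Each row is a gene list and the log axis gives its summed UMIs in the lowest quintile over the rest; grey points are the 18 hashtag pairs, diamonds all pairs per gene UMI and crosses all pairs per cell. Mitosis (0.303) and replication histones (0.246) lie furthest below 1, and MHC class I moves from 1.16 to 0.935 between the scales.

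Lysosome and iron storage genes were higher in every pair. The summed level was 25159 to 41859 CPM (median 35735) against 20853 to 31969 CPM (median 27264) in the rest, with a ratio of 1.27 and 1.04 per cell, and 5 of 19 were called higher, against 5.03% of all genes. CTSL, a lysosomal protease, was at 88.4 to 392 CPM (median 216) in the low-score cells and 73.4 to 259 CPM (median 148) in the rest, and had a ratio of 1.46 (1.42 to 1.5). CTSD, another, stood at 1.35 (1.33 to 1.38), GRN, progranulin, at 1.37 (1.33 to 1.41), SQSTM1, the autophagy receptor p62, at 1.31 (1.3 to 1.33) and FTH1, ferritin heavy chain, at 1.3. Ferritin genes have pseudogene copies that can share reads. Cholesterol synthesis genes were called higher in 6 of 15, against 5.03% of all genes. INSIG1, which holds back the sterol-sensing SREBP complex, stood at 1.78 (1.67 to 1.9), MSMO1 at 1.54 (1.39 to 1.7) and STARD4, a sterol carrier, at 1.54 (1.43 to 1.66), while the more abundant SQLE and FDPS stood at 0.911 (0.884 to 0.938) and 0.968 (0.938 to 0.999). The cholesterol list as a sum stood at 1.11 (1.09 to 1.12) per gene UMI and 0.912 per cell. Per gene UMI, the sum's ratio ran from 0.916 to 1.4 over the pairs, above 1 in 12 pairs and below 1 in 6. The sum was 0.872, 0.909, 0.99 and 0.998 times the lowest quintile in the second to the highest (medians over pairs). In the highest quintile it was above the lowest in 9 pairs, so the sum did not set these 2 quintiles apart.

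Chromatin and nuclear lamina genes were lower, with a ratio of 0.675 (0.672 to 0.678). Of 19, 15 were called lower and 0 higher, against 11.3% and 5.03% of all genes. LMNB1, a lamin of the nuclear envelope, was at 8.03 to 46.9 CPM (median 32) in the low-score cells and 77 to 133 CPM (median 108) in the rest, and had a ratio of 0.293 (0.274 to 0.312). SMC4, a condensin subunit, stood at 0.232 (0.223 to 0.241) and HMGB1, which bends DNA, at 0.722 (0.715 to 0.73). Among nuclear long noncoding RNAs, NEAT1, the scaffold of paraspeckles, was called higher, at 1.48 (1.46 to 1.49), and UCA1 lower, at 0.764 (0.742 to 0.785). The summed ratio of that list ran from 0.905 to 1.62 over the pairs and was below 1 in 3 of 18. Over the second to the highest quintile its level was 0.693, 0.63, 0.775 and 0.989 times that of the lowest. Nucleolar and ribosome assembly genes gave 0.904 (0.899 to 0.909), and 0.986 within tertiles of depth. Of 18, 1 was called lower (RRP1B, 0.753), against 11.3% of all genes. Cytosolic ribosomal protein genes stood at 1.04 per gene UMI and 0.85 per cell. Mitochondrially encoded genes stood at 1.12 per gene UMI, beside the higher mitochondrial share of the cells. Per cell they stood at 0.911 and were higher in 1 of 18 pairs.

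Markers of other cells were checked. T cell, fibroblast and endothelial genes were at or near 0: CD3E and CDH5 had 0 UMIs in all paired cells, and 0 genes of the 3 lists passed the minimum. The myeloid list was low but not absent, at 28 to 56.2 CPM (median 37.2) against 28.2 to 41.7 CPM (median 32.8) in the rest, with a ratio of 1.15 (1.08 to 1.23) and higher in 13 of 18 pairs. Its UMIs were mostly CD68, a lysosomal protein (1.09 (1.01 to 1.16)), and its next gene, CD14, was under the minimum with 884 UMIs and a ratio of 1.62 (1.39 to 1.89). Epithelial genes were present in both groups, KRT8 at 1304 and 1178 CPM (medians). ELF3, an epithelial transcription factor, and CLDN7, a tight junction claudin, were called higher (1.57 and 1.48), and CLDN4, also a claudin, lower (0.56). Of 4 mesenchymal genes tested, FN1, fibronectin, and SNAI2, a transcription factor, were called higher (1.91 and 1.31), against 5.03% of all genes. The mesenchymal list as a sum, mostly VIM, stood at 0.951 (0.943 to 0.958) and was lower in 14 of 18 pairs. With a mitochondrial limit of 15% in place of 20%, the ratios were 0.313 for mitosis, 0.52 for DNA replication, 1.27 for antiviral and 1.26 for lysosome genes. Free RNA was not subtracted, and its part in the lowest levels was not tested.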

How the data were processed

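The 2 libraries of 1 pool of OVCAR5 cells were a gene expression and a hashtag library with 7804 barcodes in common. The authors deposited unnormalised UMI counts. Per the file headers the matrix came from Cell Ranger 5.0.1, whereas version 2.1.1 of Cell Ranger, with GRCh38, stands in the submitters' processing notes, and which applies was not resolved. Cells with at least 500 genes, at least 10000 gene UMIs and at most 20% mitochondrial UMIs were kept (807 barcodes removed). A pair was the 2 highest of 8 hashtags provided the second reached 5 times (the third + 1), which 1041 cells failed. The pair rule removes cells of several pairs, no doublet caller was run, and doublets within a pair cannot be seen. Paired cells had a median of 30270 gene UMIs.

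UMIs were summed per pair in low-score cells and rest. Rate ratios were combined over pairs (Mantel-Haenszel, Greenland-Robins interval), and shares carry exact Clopper-Pearson intervals. All intervals are at 95% and cover counting error only; cells are not replicates and the pairs are not replicates of a condition, so no test was made. The members and gene lists were chosen with earlier results of these data known. Genes named are, per list, the 4 with most UMIs and up to 4 called, and the 15 highest and lowest called ratios; others were named after their values were seen. Counts over lists include a few genes that are not reported here. Held-out values choose cells on 1 of 2 random parts of the UMIs and measure the other part. Genes were called on all UMIs, both parts included. The calculation was tested on simulated data. Promoters came from RefSeq (GRCh38.p14), matched through Ensembl IDs. Alternatives covered the score, share, depth, filters, hashtag rule, total, aggregation, fold, each pair left out and, added after seeing the data, levels per cell and a second direction rule within tertiles of depth. Python 3.11.15, numpy 2.4.6, scipy 1.17.1, pandas 2.3.3 and matplotlib 3.10.9 were used.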

Additional observations from a re-analysis of the deposited data

Results flagged for a closer look

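Barcodes that the comparison left out were scored the same way and set against the median of the pairs' cuts. Of 576 barcodes over the mitochondrial limit, 70.1% (exact 95% binomial interval 66.2 to 73.9%) lay at or below it, with a median score of 0 and a median of 5423 gene UMIs. Of 204 barcodes under 10000 gene UMIs but within the mitochondrial limit, 29.9% (23.7 to 36.7%) did, at a median of 2672 gene UMIs. Of 1041 cells that passed the filter without a hashtag pair, 9.03% (7.36 to 10.9%) did, at a median of 52517 gene UMIs. Among the 5956 cells with a pair the share was 28% (26.9 to 29.2%), at a median of 30270 gene UMIs. These are signals in data outside the comparison.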

How the results depend on the processing

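Of 205 values recomputed under alternatives, 174 stayed within 1 SD over the pairs (counts: within 1.5 times), 22 moved further and 9 changed sides of 1; the pairs are not replicates, so this SD is only a yardstick. The mitosis list stayed under 1 in all of them. Taking the lowest quintile within tertiles of depth gave 534 genes lower and 86 higher when the direction had to hold in 45 of 54 strata of pair and depth. Counted over 15 of 18 pairs, a rule added after those counts were seen, it gave 720 and 331. It also gave DNA replication 0.648, MHC class I 1.06, nucleolus 0.986 and a depth ratio of 0.977. A score of the 2 histone genes alone gave 426 genes lower and 95 higher, mitosis 0.869, growth arrest 1.03, CDK inhibitors 1.02, antiviral 1.13, MHC class I 1.06 and lysosome 1.09. Per cell, chosen after seeing the data, 3792 genes were lower and 84 higher, with growth arrest 0.929, antiviral 1.04, MHC class I 0.935, MHC class II 0.993, lysosome 1.04, cholesterol 0.912 and nucleolus 0.739. A fold of 1.5 left 577 lower and 156 higher. Against the highest 2 quintiles, 738 genes were higher and the depth ratio was 0.727. The hashtag ratio, near 1, was 0.985 on split UMIs, 0.974 against the highest 2 quintiles, 0.967 at a mitochondrial limit of 15% and 0.973 with the histone score. The cause of these shifts was not tested.

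Leaving out each pair in turn, with 15 of 17 pairs needed, gave 988 to 1054 genes lower and 388 to 419 higher. The ratios ran over 0.296 to 0.31 for mitosis, 0.477 to 0.501 for DNA replication, 1.13 to 1.15 for growth arrest, 0.553 to 0.591 for CDK inhibitors, 1.27 to 1.3 for antiviral, 1.16 to 1.17 for MHC class I, 1.24 to 1.28 for MHC class II, 1.25 to 1.34 for guanylate-binding proteins, 1.26 to 1.28 for lysosome, 1.08 to 1.12 for cholesterol, 0.898 to 0.909 for nucleolus, 0.833 to 0.834 for depth and 1.0 to 1.01 for hashtag UMIs, and the mitochondrial difference over 1.1 to 1.16 points. Every ratio already compares cells within a hashtag pair; no paired analysis was possible over replicates, because the 2 libraries are 1 pool. Depth limits the choice itself: a cell is placed by few molecules of 6 genes.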
